A study of Mus musculus with 2 samples.

Results

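Conventional T cells are the CD4+ helper T cells that are not regulatory T cells (Tregs), and here they were compared between the cells that carried hashtag 2 or 4 and those that carried hashtag 1 or 3. A hashtag is an antibody joined to a DNA barcode that marks every cell of one pool before pools are mixed. The cells were chosen by rule from 22960 barcodes of 1 pooled expression library. A cell had at least 500 genes, under 10% mitochondrial counts, and a top hashtag with at least 10 counts and at least 80% of the counts of hashtags 1 to 6. It also had at least 2 UMIs (unique molecular identifiers, one per captured RNA molecule) of the T cell genes Cd3e, Cd3d, Cd3g and Trac together. It had none of the Treg genes Foxp3, Il1rl1, Ikzf2 and Areg and none of Mki67, a proliferation gene. This left 6657 cells, of which 2439 carried hashtags 1 to 4. Hashtags 2 and 4 marked 459 and 363 of them, against 925 and 692 for hashtags 1 and 3. Hashtags 5 and 6 marked the other 4218 cells and are given below only as side values.

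The cells came from C57BL/6 Foxp3.Cre-YFP mice with Bmal1 deleted (Treg-bmal1KO) or kept (Treg-bmal1WT) in Tregs. They were taken from spleen and visceral adipose tissue (VAT), the fat around abdominal organs, at zeitgeber times (ZT, hours after lights on) 0 and 12. Mice lived in reversed-light rooms, and 34000 VAT and 32000 splenic CD4+ T cells were sorted. All groups share the Foxp3-driven Cre, which acts in Tregs, so conventional T cells of neither genotype are its target cells. The 2 tissues, 2 genotypes and 2 times make 8 combinations, whereas 6 hashtags carried the cells, and hashtags are named by number alone. No hashtag is assigned to a tissue, genotype or time here, and the labels give neither the number of animals nor their sex and age. Hashtags 2 and 4 were set against 1 and 3 because clock genes of these same data had separated them, and hashtags of one pair are not replicates. The values below are therefore a description without tests.

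In textbook terms, the circadian clock is a feedback loop in which BMAL1 (encoded by Arntl) and CLOCK switch on Per and Cry genes, whose proteins then repress BMAL1 and CLOCK. REV-ERB proteins (Nr1d1, Nr1d2) repress and ROR proteins (Rora) activate Arntl, and output factors such as Dbp, Tef and Hlf carry the rhythm to other genes. Conventional CD4+ T cells carry such a clock, and in VAT they are known to include many Th1-type cells that make interferon-gamma.

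The 4 hashtag barcodes that define the groups are designed DNA oligos of 15 bases, printed in full because the whole grouping rests on telling them apart. Each differs from every other used hashtag at 8 or more positions.
Hashtag 2: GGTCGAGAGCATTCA
Hashtag 4: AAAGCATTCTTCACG
Hashtag 1: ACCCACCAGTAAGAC
Hashtag 3: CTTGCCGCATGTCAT

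Summed UMIs were 1252788 and 1038605 in hashtags 2 and 4, against 2572155 and 2053208 in hashtags 1 and 3. Median UMIs per cell were 2515 and 2750 against 2597 and 2725.5, and median mitochondrial shares were 2.40% and 2.35% against 2.35% and 2.30%. The rule kept 30.02% and 28.6% of all cells with one top tag in hashtags 2 and 4, against 33.4% and 38.5% in hashtags 1 and 3. Cells near the limits were few for 3 of the limits. A top tag share of 80 to under 85% was found in 67 cells and one of 75 to under 80% in 51 cells otherwise passing. There were 175 cells with 2 T cell UMIs and 146 with 1, and 87 cells with 500 to under 600 genes and 67 with 400 to under 500. The limit on Treg genes cut through more cells, since 1070 cells had exactly 1 UMI of the excluded genes, against the 2439 kept with 0.

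The label holds for T cells. Levels below are CPM, counts per 1000000, that is, UMIs of a gene scaled to the sum of all UMIs of the cells of one hashtag, with exact Poisson 95% intervals that cover counting error only. Each of the 12 listed T cell genes reached 10 CPM, and their log2 differences had a median of -0.01. Any of Cd3e, Cd3d, Cd3g and Trac among them would be detected by the rule itself. Trbc1, a listed gene that the rule did not use, stood at 847 and 793 CPM in hashtags 2 and 4, against 725 and 740 CPM in hashtags 1 and 3. Cd4 RNA stood at 192 and 176 CPM in hashtags 2 and 4, against 197 and 176 CPM in hashtags 1 and 3. It was seen in 37.5% and 38.3% of cells, against 40.4% and 40.6%. Cd8a had 0 and 0 UMIs, which allows up to 2.39 and 2.89 CPM (3 counts), against 3 and 2 UMIs. Treg genes that the rule did not use, such as Ctla4 and Il2ra, summed to 678 and 649 CPM, against 731 and 624 CPM. In the Treg-marker cells of the same hashtags this sum was 2876 and 2792 CPM, against 2411 and 2230 CPM.

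The make-up of the cells was alike in outline and uneven between single hashtags. Th1-type cells, gated on Cxcr3, Ifng, Ly6c2, Il18r1, Ccl5, Nkg7 and Tbx21 with 2 or more UMIs in sum, made up 77.1% and 67.2% of cells in hashtags 2 and 4, against 74.9% and 68.4% in hashtags 1 and 3. With each cell thinned to 1500 UMIs, the shares were 71.2% and 56.0%, against 66.2% and 58.6%. Thinning left out 67 and 38 cells, against 105 and 78. Naive-type cells, which had a UMI of a naive T cell gene such as Ccr7 or Lef1 and none of 6 effector genes and were not Th1-type, made up 4.79% and 8.26%, against 4.76% and 5.35%. Thinned, they made up 5.10% and 12%, against 6.71% and 10.4%. Neither gate set one pair of hashtags apart from the other. Hashtags 5 and 6 held fewer Th1-type cells, 35.5% and 33.7%, and more naive-type cells, 22.2% and 24.7%. The sort and the rule can set these shares.

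Few of all measured genes were called between hashtags 2 and 4 and hashtags 1 and 3. A gene was measured at a mean of 10 CPM over hashtags 1 to 4, and called when the Poisson intervals of both hashtags of one pair lay clear of both of the other and the mean log2 CPM difference was at least 1.5-fold. Of 7731 genes measured, 8 were called higher (0.103%) and 4 lower (0.0517%) in hashtags 2 and 4. Genes with few UMIs can miss the call even at larger folds. Trim34a, with 15 and 15 UMIs against 69 and 49 UMIs and a log2 difference of -0.91, was not called. Both hashtags 2 and 4 lay above both hashtags 1 and 3 for 1381 genes (17.9%) and below for 1025 (13.3%). The median log2 difference of all measured genes was 0.03. Within the pairs, by the same fold and clear intervals between only 2 hashtags, 136 genes (1.76%) were called between hashtag 2 and hashtag 4 and 154 (1.99%) between hashtag 1 and hashtag 3. The median size of the log2 difference was 0.14 between the pairs, whose means pool 2 hashtags each. It was 0.24 between hashtags 2 and 4 and 0.17 between hashtags 1 and 3. The scatter of all genes by level shows the clock genes inside the cloud.

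**Figure D1:**
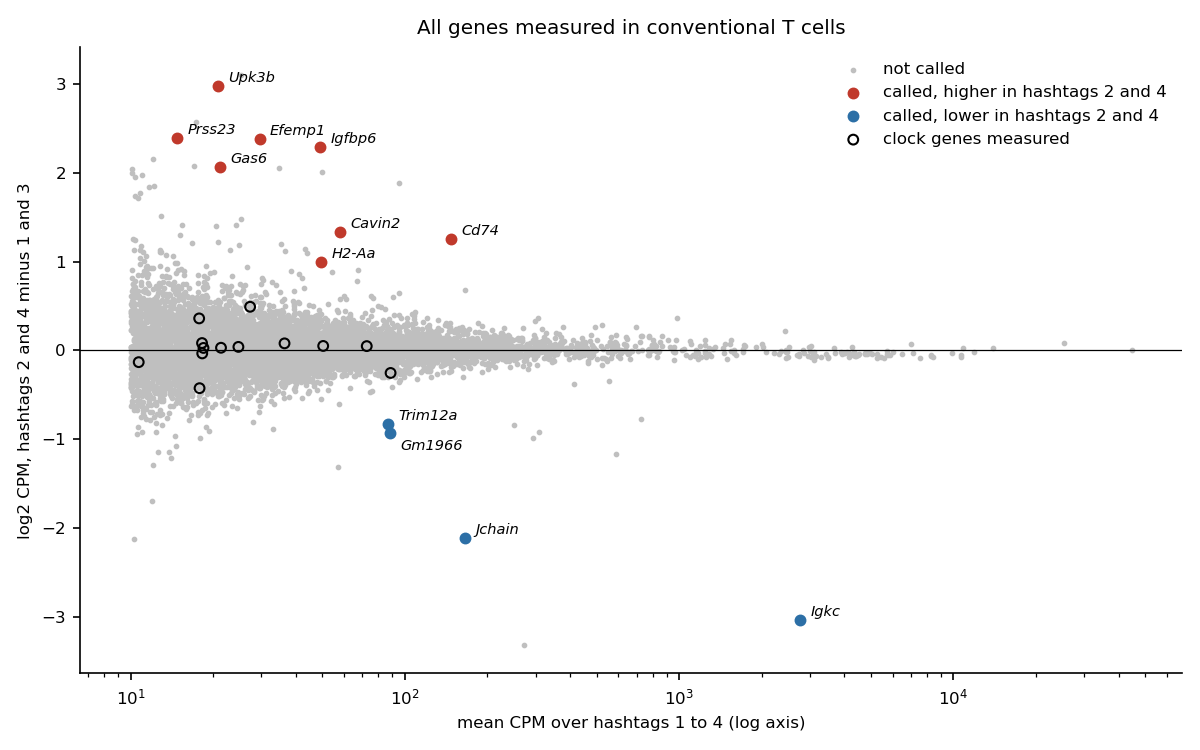
Mean CPM over hashtags 1 to 4 (log axis) against the log2 CPM difference of hashtags 2 and 4 minus hashtags 1 and 3, for each of the 7731 measured genes. The 8 genes called higher are red, the 4 called lower are blue, and the 13 measured clock genes, ringed, all lie among the genes not called.

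Of the 26 clock genes listed, 13 were measured and 0 were called. Clear intervals are hard to reach at counts such as the 25 and 18 UMIs of Arntl in hashtags 2 and 4. Without overlap, 1 was higher (Per1) and 3 were lower (Csnk1e, Rora and Tef), against 17.9% and 13.3% of all measured genes, and their median log2 difference was 0.04. The rule paired the hashtags on clock genes, so these levels only describe the conventional T cells. Among activators, Arntl, the gene deleted in Tregs of the KO mice, stood at 19.96 and 17.3 CPM in hashtags 2 and 4, against 19.1 and 16.6 CPM in hashtags 1 and 3. All 4 Arntl intervals overlapped. The labels do not give the deleted stretch, and reads from the 3′ end may lie outside it, so this level does not check the genotype. Clock, the partner of BMAL1, stood at 27.9 and 22.2 CPM against 24.5 and 24.4 CPM. Npas2, which can stand in for CLOCK, had 1 and 1 UMIs against 0 and 2 UMIs, at or under the 3-count floor on both sides.

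Among the repressors, Per1 stood at 26.3 and 37.6 CPM in hashtags 2 and 4, against 25.3 and 19.97 CPM in hashtags 1 and 3. Hashtag 2 thus lay close to hashtag 1, and hashtag 4 stood highest. The pooled counts were 72 against 106 UMIs, a log2 ratio of 0.46 with an exact conditional 95% interval of 0.00 to 0.90. Cry1, the other arm of the repressor complex, stood at 27.1 and 13.5 CPM against 17.9 and 12.7 CPM, so the pairs overlapped. Bhlhe40, a repressor also induced by T cell activation, followed single hashtags, with 97.4 and 52.0 CPM against 85.1 and 56.0 CPM. Csnk1d, a kinase of PER proteins, likewise overlapped, with 65.5 and 38.5 CPM against 51.3 and 46.3 CPM.

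In the stabilising loop, Nr1d2 stood at 17.6 and 19.3 CPM in hashtags 2 and 4, against 15.6 and 21.4 CPM in hashtags 1 and 3. Hashtags 1 and 3 were the lowest and the highest. Rora stood at 81.4 and 79.9 CPM against 89.8 and 104 CPM, with a pooled log2 ratio of -0.25 (interval -0.51 to 0.00). Nfil3, a repressor of clock output genes, stood at 9.58 and 10.6 CPM against 10.5 and 12.2 CPM. Of the outputs, Dbp stood at 16.8 and 26.0 CPM against 15.9 and 26.8 CPM. Tef stood at 16.8 and 13.5 CPM against 20.2 and 20.9 CPM, below in both hashtags 2 and 4, with overlapping intervals. The 13 clock genes under 10 CPM ranged from 0 to 10.7 CPM in these hashtags, the highest being Nr1d1 with 3.19 and 8.67 CPM against 5.05 and 10.7 CPM.

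The same clock genes in the Treg-marker cells of the same hashtags gave other values. Those 4007 cells passed the same filters, had at least 1 UMI of Foxp3, Il1rl1, Ikzf2 or Areg, and had none of Mki67. For Nr1d2 the pooled log2 ratio of hashtags 2 and 4 to 1 and 3 was 0.01 (interval -0.56 to 0.56, 42 against 84 UMIs) in conventional T cells and -1.83 (-2.37 to -1.32, 38 against 193 UMIs) in Treg-marker cells. Cry1 gave 0.43 (-0.13 to 0.98) in conventional T cells and 1.28 (0.98 to 1.58) in Treg-marker cells. Hlf gave -0.31 (-1.53 to 0.80, 10 against 25 UMIs) in conventional T cells and 1.15 (0.78 to 1.51) in Treg-marker cells. Rora gave -0.25 (-0.51 to 0.00) in conventional T cells and 0.29 (0.18 to 0.40) in Treg-marker cells. The intervals of the 2 classes did not overlap for Nr1d2 and Rora, met near 0.98 for Cry1 and overlapped for Hlf. These pooled intervals cover counting error only and not the spread between the hashtags of a pair. Per1 gave 0.46 (0.00 to 0.90) in conventional T cells and -0.06 (-0.35 to 0.22) in Treg-marker cells. Npas2 had 2 against 2 UMIs in conventional T cells, too few for a fold, and 79 against 13 UMIs in Treg-marker cells. The difference between the classes was not tested, since the pairing came from these genes.

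**Figure D2:**
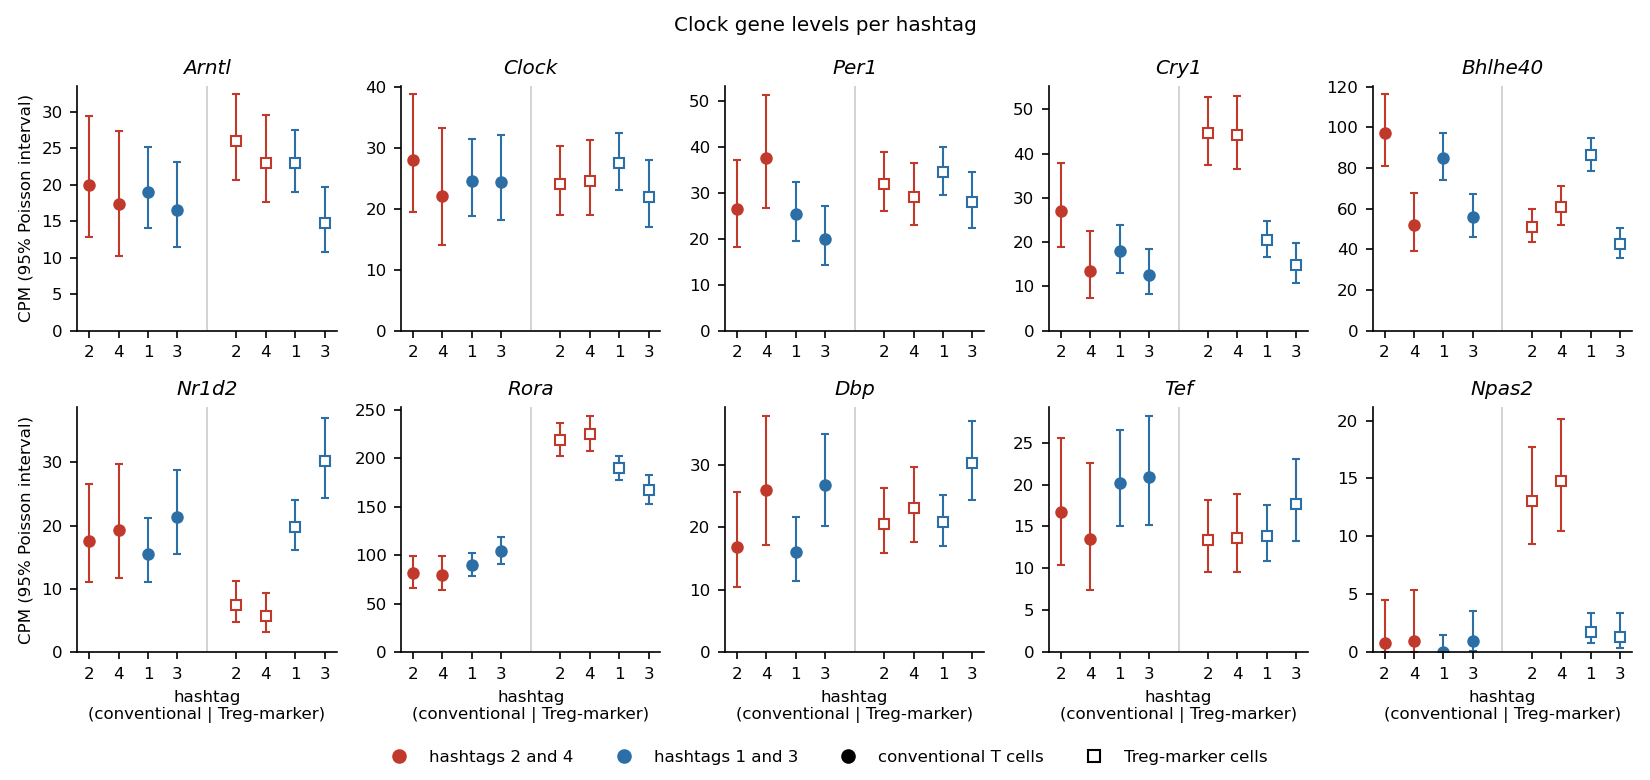
CPM of 10 clock genes in hashtags 2, 4, 1 and 3 (left to right), in conventional T cells (filled circles) and in Treg-marker cells (open squares), with exact Poisson 95% intervals. For Nr1d2, hashtags 2 and 4 (red) and 1 and 3 (blue) mix in conventional T cells at 17.6, 19.3, 15.6 and 21.4 CPM and part in Treg-marker cells at 7.50, 5.67, 19.8 and 30.2 CPM. For Per1, Rora and Tef the CPM values of the pairs do not overlap in conventional T cells, but intervals of opposite pairs do.

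Depth also differed between the classes, and more genes were called in the deeper one. Of 7778 genes measured in Treg-marker cells, 65 (0.836%) were called higher and 16 (0.206%) lower in hashtags 2 and 4. Without overlap, 1306 (16.8%) were higher and 1779 (22.9%) lower there. With their UMIs drawn down at random to the hashtag totals of the conventional T cells, 47 were called higher and 4 lower of 7742 genes (0.659% in all), against 8 higher and 4 lower in conventional T cells. The calls of both classes shared 2 genes, 16.7% of the 12 called in conventional T cells and 2.47% of the 81 called in Treg-marker cells. Both shared genes, Trim12a and Gm1966, were lower in hashtags 2 and 4.

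Trim12a was lower in hashtags 2 and 4, with its UMIs spread over many cells. It belongs to the TRIM5-related genes, whose proteins act in restriction of retroviruses, and its count is uncertain because related copies such as Trim5 could share reads with it. Trim12a stood at 59.9 and 64.5 CPM in hashtags 2 and 4 (intervals 47.1 to 75.04 and 49.99 to 81.9), against 120 and 103 CPM in hashtags 1 and 3 (107 to 134 and 89.4 to 118). That is 75 and 67 UMIs against 308 and 211 UMIs, and a log2 difference of -0.83. It was seen in 14.4% and 16.5% of cells, against 26.9% and 26.4%, and no barcode held more than 5 of its UMIs. Hashtags 5 and 6 stood at 132 and 128 CPM, near hashtags 1 and 3.

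Gm1966, annotated as protein-coding with no role given in the files, is named although the naming rule left out symbols of its kind, so it was chosen after its values were seen. It stood at 53.5 and 67.4 CPM in hashtags 2 and 4, against 122 and 109 CPM in hashtags 1 and 3, a log2 difference of -0.93. Hashtags 5 and 6 stood at 122 and 103 CPM. Gm1966 was seen in 12.6% and 16.8% of cells, against 26.6% and 25.1%. Both hashtags 2 and 4 lay below both hashtags 1 and 3 by more than their intervals for both genes, as the call requires.

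Both genes had lower levels in hashtags 2 and 4 in each kind of cell looked at, though not all of these differences met the call. In Th1-type cells Trim12a stood at 60.1 and 63.0 CPM in hashtags 2 and 4, against 117 and 96.1 CPM in hashtags 1 and 3, and was not called there. The interval of hashtag 4 reached 84.9 CPM and that of hashtag 3 began at 80.9 CPM. Gm1966 stood at 57.0 and 58.7 CPM in Th1-type cells, against 123 and 106 CPM, and was called. Among cells of neither gate Trim12a stood at 56.9 and 76.5 CPM, against 126 and 121 CPM. Naive-type cells held 4 and 5 UMIs of Trim12a against 18 and 14, too few for narrow intervals. In Treg-marker cells Trim12a stood at 38.5 and 40.4 CPM against 84.3 and 78.1 CPM, and Gm1966 at 51.2 and 54.4 CPM against 108 and 115 CPM. In the 521 tagged cells with fewer than 2 T cell UMIs, Trim12a stood at 39.4 and 45.3 CPM against 125 and 149 CPM, and Gm1966 at 43.0 and 71.1 CPM against 155 and 174 CPM. In cells of neither gate Gm1966 stood at 43.7 and 96.7 CPM against 104 and 108 CPM, so hashtag 4 lay close to hashtags 1 and 3 there.

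Trim12a and Gm1966 lie on the same chromosome as Arntl. In RefSeq on GRCm38.p6 (the assembly of mm10, the build named by the submitters), Trim12a lies at chr7:104299893-104315558, Gm1966 at chr7:106595549-106644646 and Arntl at chr7:113178471-113314126. Their starts lie 8.88 Mb and 6.58 Mb before that of Arntl. Positions were looked at only after the calls had been seen. Chromosome 7 held 547 of the 7544 measured genes with a position, and within 15 Mb of Arntl there were 160.

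A further gene of this stretch stood out below the 10 CPM filter. Gm35082, a long non-coding RNA of RefSeq at chr7:100675007-100678142, starts 12.5 Mb before Arntl. It had 25 and 14 UMIs in hashtags 2 and 4, or 19.96 and 13.5 CPM, against 0 and 1 UMIs in hashtags 1 and 3. The 0 allows up to 1.17 CPM in hashtag 1, and the single UMI is 0.487 CPM in hashtag 3. The pooled ratio was 78.7, with an exact conditional 95% interval of 13.3 to 3188. It was seen in 22 and 14 cells, against 0 and 1 cells, with at most 3 UMIs in a cell. Hashtags 5 and 6, with 4218 cells, held 2 and 3 UMIs.

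Gm35082 showed the same contrast outside the conventional T cells. Treg-marker cells held 97 and 71 UMIs in hashtags 2 and 4, or 31.6 and 26.8 CPM, against 2 and 1 UMIs in hashtags 1 and 3. Tagged cells with fewer than 2 T cell UMIs held 5 and 4 UMIs against 0 and 0. Without any filter on low values, 16 genes (0.0813% of 19681) were called in conventional T cells and 87 (0.398% of 21851) in Treg-marker cells. The 3 genes called in both were Gm35082, Trim12a and Gm1966, all on chromosome 7. The other 3 calls that the filter had removed in conventional T cells, Osr1, Flrt2 and Fgf1, were higher in hashtags 2 and 4, with 1 to 4 cells holding them in each of these hashtags. These genes were named after their values were seen.

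Genes near Trim12a were mixed. Trim34a stood at 11.97 and 14.4 CPM in hashtags 2 and 4, against 26.8 and 23.9 CPM in hashtags 1 and 3, a log2 difference of -0.91. Trim5 stood at 9.58 and 17.3 CPM against 28.8 and 19.97 CPM (-0.86), and Trim30d at 7.18 and 12.5 CPM against 20.2 and 18.0 CPM (-0.96). Trim12c, another near relative, stood at 36.7 and 35.6 CPM against 46.3 and 44.8 CPM (-0.32). These 4 genes were lower without overlap and not called. In Treg-marker cells Trim12c stood at 44.0 and 41.2 CPM against 44.5 and 40.7 CPM, so its pairs overlapped there. Trim30a, a close relative among them, stood at 71.0 and 64.5 CPM against 74.3 and 68.2 CPM in conventional T cells, and its pairs overlapped. In Treg-marker cells it stood at 54.1 and 57.8 CPM against 67.8 and 60.1 CPM. Olfr655, an odorant receptor gene of the same stretch, was called higher in Treg-marker cells without the filter, at 16.6 and 6.80 CPM against 1.37 and 0.656 CPM, but 1 barcode held 41 of its 51 UMIs in hashtag 2 and 1 held 16 of 18 in hashtag 4. In conventional T cells it had 1 and 2 UMIs against 17 and 1. In the stretch 5 to 10 Mb before Arntl, 22 genes were measured, of which 3 were higher and 7 lower without overlap. It is given because it holds the 2 genes called lower, Trim12a and Gm1966. Other 5 Mb stretches within 15 Mb had 0 measured genes called. Before Arntl, 10 of 34 were higher and 8 lower at 10 to 15 Mb, and 3 of 12 and 0 within 5 Mb. After it, 0 of 14 were higher and 1 lower within 5 Mb. At 5 to 10 Mb after it these were 1 of 18 and 4, and at 10 to 15 Mb 8 of 60 and 7. Over all measured genes 17.9% were higher and 13.3% lower without overlap, and 0.0517% were called lower.

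**Figure D3:**
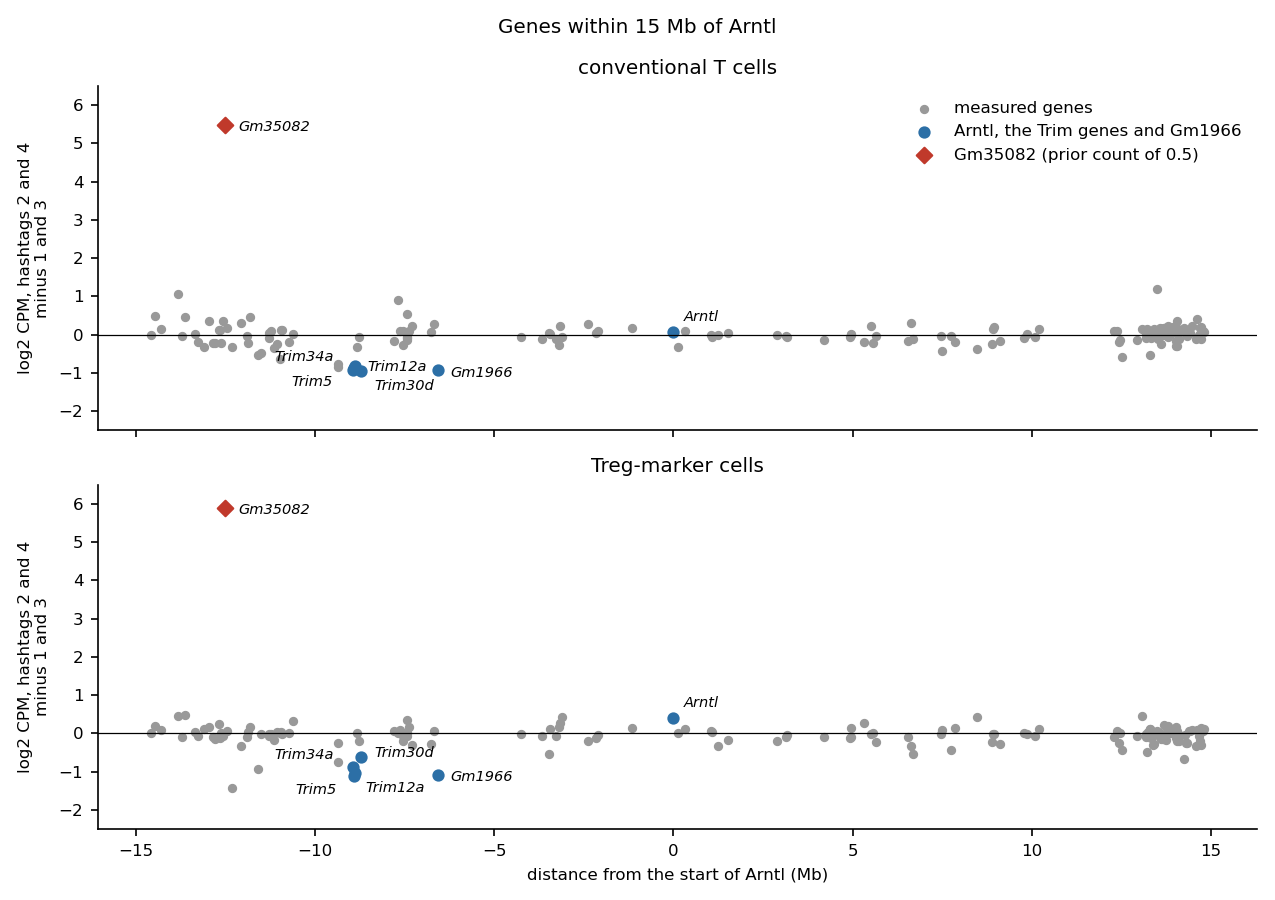
Log2 CPM difference of hashtags 2 and 4 minus hashtags 1 and 3 for genes measured in conventional T cells, against their distance from the start of Arntl on chromosome 7, in conventional T cells (top) and Treg-marker cells (bottom). Trim12a (-0.83 and -1.04) and Gm1966 (-0.93 and -1.07) lie low in both classes. Gm35082 lies high in both, at a place that depends on the prior count of 0.5 added to its near-zero counts.

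Reads shared between related Trim genes could be split or dropped by the authors' counting, and the transcripts' 3′ ends were not compared, so single levels of these genes are uncertain. The promoter windows of Trim12a and Trim5 share an unbroken run of 241 bases. The other pairs among the windows of Trim12a, Trim5, Trim34a, Trim30d and Gm1966 share runs of 7 to 12 bases. The windows of Trim12a and Trim5 are printed with that of Gm1966 because all 3 genes were lower in hashtags 2 and 4. They run from 250 bases before to 50 after a transcript start in RefSeq on GRCm38.p6, 5′ to 3′ on the gene's strand. For Trim12a and Trim5 this start lies inside the gene span, which reaches 104315558 and 104288254. Capitals mark matches on either strand to GAAA followed by any 2 bases and a further GAAA, a core of the element bound by interferon-activated factors. Such a match was found in 3.44% of 32851 promoter windows and is a description, not a binding site. Each window held 1 match, starting at 11, -49 and -163 from the transcript start in Trim12a, Trim5 and Gm1966, as did those of Trim34a and Trim30d. The matches of Trim12a and Trim5 lie in their shared run and are not separate finds. The genes were picked after their values were seen, and windows of Trim12c and Trim30a were not looked at.
Trim12a, chr7:104315446-104315745, minus strand: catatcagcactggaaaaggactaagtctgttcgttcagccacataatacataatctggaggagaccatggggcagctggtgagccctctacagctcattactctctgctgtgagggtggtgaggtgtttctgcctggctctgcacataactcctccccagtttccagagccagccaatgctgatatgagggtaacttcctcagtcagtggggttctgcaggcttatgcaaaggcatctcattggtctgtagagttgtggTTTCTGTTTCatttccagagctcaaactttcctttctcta
Trim5, chr7:104288057-104288356, minus strand: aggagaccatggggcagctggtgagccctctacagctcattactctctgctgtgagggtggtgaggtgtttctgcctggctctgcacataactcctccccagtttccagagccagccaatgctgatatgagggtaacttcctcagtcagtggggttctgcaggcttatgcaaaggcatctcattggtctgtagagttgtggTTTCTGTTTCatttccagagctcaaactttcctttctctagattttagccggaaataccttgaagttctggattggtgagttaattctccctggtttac
Gm1966, chr7:106644596-106644895, minus strand: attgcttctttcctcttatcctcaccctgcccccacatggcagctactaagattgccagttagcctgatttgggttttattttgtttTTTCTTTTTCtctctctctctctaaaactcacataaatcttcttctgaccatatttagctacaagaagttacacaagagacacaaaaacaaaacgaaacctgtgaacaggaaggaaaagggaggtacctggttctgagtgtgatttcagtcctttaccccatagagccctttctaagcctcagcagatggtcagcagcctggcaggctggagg

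The other 2 genes called lower, Igkc and Jchain, rested on a pair of barcodes. They encode the antibody kappa light chain and the joining chain of secreted antibodies, products of B cells and plasma cells. Igkc stood at 620 and 574 CPM in hashtags 2 and 4, against 5173 and 4678 CPM in hashtags 1 and 3. In hashtag 1, 1 barcode with 24506 UMIs held 11807 of 13305 Igkc UMIs (88.7%). In hashtag 3, 1 barcode with 17134 UMIs held 8622 of 9605 (89.8%). Each of these barcodes had 12 T cell UMIs and its own hashtag at 97.6% and 94.9% of tag counts.

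Without the top barcode of each hashtag, Igkc stood at 557 and 519 CPM in hashtags 2 and 4, against 582 and 479 CPM in hashtags 1 and 3. Jchain then stood at 67.1 and 51.0 CPM, against 57.2 and 56.0 CPM. The pairs overlapped for both genes, with log2 differences of 0.03 and 0.05. Igkc was also spread thinly, in 69.3% and 74.1% of conventional T cells against 68.4% and 73.7%. T cells are not known to make it, and the shares with a UMI overlapped between the pairs.

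The genes called higher were for the most part genes of other cell types held by few barcodes. Efemp1, which encodes a fibulin of the extracellular matrix, stood at 58.3 and 41.4 CPM in hashtags 2 and 4, against 9.33 and 9.25 CPM in hashtags 1 and 3. Upk3b, a uroplakin known from urothelium and mesothelium, stood at 50.3 and 24.1 CPM, against 3.11 and 5.84 CPM. Igfbp6, an insulin-like growth factor binding protein, stood at 129 and 37.6 CPM, against 10.5 and 19.0 CPM. A single hashtag 4 barcode with 10051 UMIs and 3 T cell UMIs held 42 of 43 Efemp1 UMIs, 22 of 25 of Upk3b and 31 of 39 of Igfbp6 in that hashtag. The same barcode led for Gas6, a ligand of TAM receptors, with 17 of 24 UMIs, and for the serine protease gene Prss23, with 18 of 22.

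Without each gene's top barcodes, these 5 genes were no longer called. Efemp1 then stood at 26.3 and 0.963 CPM in hashtags 2 and 4, against 3.11 and 0.487 CPM in hashtags 1 and 3, and hashtag 4 lay below hashtag 1. The log2 differences left were 1.77 for Upk3b, 1.31 for Prss23, 1.17 for Gas6 and 1.15 for Igfbp6, and that of Efemp1 was 2.0, all still past 1.5-fold. Cd74, the chain that escorts class II antigen-presenting molecules, stood at 203 and 211 CPM, against 99.1 and 75.5 CPM, and stayed called without its top barcodes at 111 and 102 CPM, against 62.2 and 61.9 CPM. It was seen in 15.03% and 9.64% of cells, against 10.5% and 11.7%, so the share of cells did not part the pairs. H2-Aa, a class II chain, stood at 59.1 and 73.2 CPM, against 33.4 and 32.6 CPM, and was not called without its top barcodes.

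Cavin2, a protein of caveolae, stood at 99.0 and 67.4 CPM in hashtags 2 and 4, against 27.2 and 38.5 CPM in hashtags 1 and 3. It stayed called without its top barcodes, at 62.3 and 48.1 CPM against 12.8 and 23.4 CPM, although 3.49% and 5.23% of cells held it, against 2.16% and 2.89%. In all, 4 of the 12 calls remained without top barcodes, namely Cavin2, Cd74, Gm1966 and Trim12a. This step was chosen after the data had been seen.

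**Figure D4:**
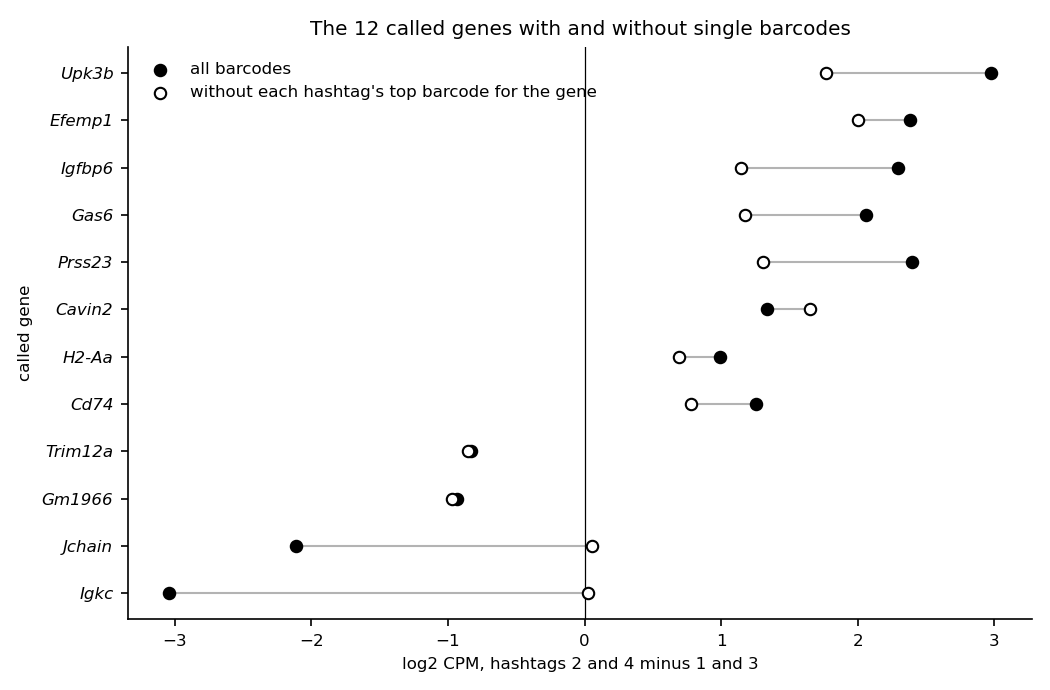
Log2 CPM difference of hashtags 2 and 4 minus hashtags 1 and 3 for the 12 called genes, with all barcodes (filled) and without the barcode that holds most UMIs of that gene in each hashtag (open). Igkc and Jchain move to 0.03 and 0.05, while Trim12a (-0.83 and -0.86) and Gm1966 (-0.93 and -0.97) hardly move.

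Marker lists of other cells gave the following sums. Their counts stand beside 17.9% of all measured genes higher and 13.3% lower without overlap. Of all measured genes 0.103% were called higher and 0.0517% lower. The B cell list stood at 1282 and 1214 CPM in hashtags 2 and 4, against 6843 and 5105 CPM in hashtags 1 and 3. Of its 10 genes, 6 were measured, 4 of them higher (2 called, Cd74 and H2-Aa) and 1 lower without overlap (Igkc, called). The endothelial and stromal list summed to 967 and 463 CPM, against 454 and 531 CPM, with 3 of 10 measured genes higher and 0 lower. Myeloid markers summed to 723 and 430 CPM, against 545 and 560 CPM, and adipocyte markers to 1238 and 1015 CPM, against 513 and 1487 CPM. Of 8 measured myeloid genes 0 were higher and 1 was lower, and of 4 adipocyte genes 0 were either. Erythroid and platelet markers summed to 3334 and 183 CPM, against 948 and 1972 CPM, and 0 of 5 measured genes parted the pairs. None of the 6 CD8 and gamma-delta T cell genes was measured, and they summed to 10.4 and 31.8 CPM, against 21.8 and 27.8 CPM. The NK and innate lymphoid cell list summed to 28.7 and 26.0 CPM, against 33.4 and 24.4 CPM. Its 1 measured gene did not part the pairs. The part of other cells in the results on gene lists was not tested.

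Among gene lists of T cell function, the interferon response list had the most members on one side. Of 22 measured genes, 12 were lower without overlap in hashtags 2 and 4 and 1 was higher, against 13.3% and 17.9% of all measured genes, and 0 were called. Their median log2 difference was -0.12, against 0.03 for all measured genes. Iigp1, an interferon-induced GTPase, stood at 35.9 and 26.0 CPM in hashtags 2 and 4, against 45.9 and 42.9 CPM in hashtags 1 and 3. Gbp2, a guanylate-binding protein, stood at 31.9 and 22.2 CPM, against 44.7 and 32.6 CPM, and Irgm1 at 24.7 and 17.3 CPM, against 27.6 and 25.8 CPM. Bst2, tetherin, was the one higher, at 113 and 112 CPM against 96.4 and 99.4 CPM. The summed list stood at 2665 and 2453 CPM, against 2914 and 2579 CPM, so the sums of hashtags 2 and 3 crossed. Without the 31 barcodes that were the top barcode of a called gene in their hashtag, 10 of the 22 genes were lower and 0 higher, against 14.7% and 16.4% of all measured genes. In Th1-type cells 9 (40.9%) were lower and 1 higher, where 13.7% of all measured genes were lower. In cells that were not Th1-type 5 (22.7%) were lower and 1 higher, where 15.6% of all measured genes were lower. In Treg-marker cells 9 were lower and 0 higher, where 24.05% and 15.4% of the same measured genes were lower and higher.

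Sterol and survival genes had 0 calls. In the lipid and sterol list 7 of 25 measured genes (28%) were higher without overlap and 2 (8%) lower, against 17.9% and 13.3% of all measured genes, and the median log2 difference was 0.16. Without the same 31 barcodes 5 (20%) were higher and 2 lower, near the 16.4% and 14.7% of all measured genes. In Th1-type cells 6 (24%) were higher and 1 lower, where 18.5% of all measured genes were higher. In cells that were not Th1-type 8 (32%) were higher and 3 lower, where 18.6% were higher. In Treg-marker cells 15 (60%) were higher and 2 (8%) lower, where 15.4% and 24.05% of the same measured genes were. Fdft1, squalene synthase, stood at 27.1 and 13.5 CPM in hashtags 2 and 4, against 12.4 and 8.28 CPM in hashtags 1 and 3. Fdps, which makes farnesyl diphosphate in the same pathway, stood at 20.8 and 24.1 CPM, against 16.7 and 13.6 CPM. In the apoptosis and survival list 6 of 18 (33.3%) were higher and 2 (11.1%) lower, against the same 17.9% and 13.3%, with a median of 0.10. Without the same 31 barcodes 6 of these genes were higher and 3 lower. In Th1-type cells 6 were higher and 2 lower, and in cells that were not Th1-type 6 and 4. In Treg-marker cells 3 of these genes were higher and 6 lower, with a median of -0.08. Fas, a death receptor, stood at 27.1 and 28.9 CPM, against 19.1 and 17.5 CPM, and Pmaip1 (NOXA) at 17.6 and 19.3 CPM, against 10.5 and 13.6 CPM. Bbc3 (PUMA), also pro-apoptotic, stood at 26.3 and 22.2 CPM, against 34.6 and 37.5 CPM. The genes named here had 14 to 89 UMIs per hashtag, and in each the intervals of some hashtags of opposite pairs overlapped.

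Activation and effector lists had 0 calls in conventional T cells, and single members are given. In the AP-1 list, whose genes also respond to tissue dissociation, 4 of 22 (18.2%) were higher and 0 lower, with a median of 0.13. The share higher is that of all measured genes, 17.9%, whereas 13.3% of all measured genes were lower. In Treg-marker cells 21 of the 22 genes (95.5%) were higher and 0 lower, with a median of 0.59. There 15.4% and 24.05% of the same measured genes were higher and lower. In conventional T cells Fos stood at 366 and 299 CPM in hashtags 2 and 4, against 277 and 252 CPM in hashtags 1 and 3. Klf6 stood at 619 and 534 CPM, against 448 and 496 CPM. Of 24 measured Th1 and cytotoxic genes 1 was higher and 2 lower (4.17% and 8.33%), and the median was 0.00. Gzma, a killer-cell protease, was the one higher at 262 and 50.1 CPM, against 19.4 and 49.2 CPM, so hashtags 4 and 3 were near each other and hashtag 2 stood apart. Without its top barcodes Gzma stood at 207 and 23.1 CPM against 14.4 and 32.6 CPM, so its pairs overlapped. Il18r1, the receptor of interleukin-18, stood at 96.6 and 100 CPM, against 135 and 112 CPM. Tnf, the inflammatory cytokine, stood at 102 and 81.8 CPM, against 60.7 and 61.4 CPM, a log2 difference of 0.59. Il27ra, a receptor that restrains T cells, stood at 43.1 and 45.3 CPM, against 63.4 and 57.5 CPM.

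The remaining lists had 0 calls and are read against 17.9% of all measured genes higher and 13.3% lower. Naive and quiescence genes had 3 of 17 higher and 3 lower (17.6% each), near those shares. Il7r, the interleukin-7 receptor, stood at 387 and 601 CPM in hashtags 2 and 4, against 614 and 611 CPM in hashtags 1 and 3, so hashtag 2 alone was low. In the homing list 5 of 18 (27.8%) were higher and 1 (5.56%) lower, and among the higher was the integrin gene Itga1, at 71.0 and 59.7 CPM against 52.9 and 42.9 CPM. Of 10 measured clock-controlled genes outside the core lists 1 was higher and 1 lower (10% each). The higher one, Klf9, a glucocorticoid-induced repressor, stood at 38.3 and 41.4 CPM, against 26.4 and 32.6 CPM. Among 20 heat shock genes 3 (15%) were higher and 0 lower, and Hspa1b stood at 143 and 107 CPM, against 80.1 and 105 CPM. Of 14 NF-kappaB feedback genes 0 were higher and 2 (14.3%) lower (Traf1 and Icam1). Of 11 mitochondrially encoded genes 6 (54.5%) were higher and 1 lower, with a median log2 difference of 0.04. Of 9 measured proliferation genes 4 (44.4%) were higher and 1 lower, with a median of 0.11. Among them was Stmn1, which destabilises microtubules, at 55.9 and 27.9 CPM against 20.6 and 26.3 CPM. A single barcode held 31 of its 70 UMIs in hashtag 2. Without its top barcodes Stmn1 stood at 31.1 and 23.1 CPM against 19.4 and 23.9 CPM, so its pairs overlapped. Of 33 ribosomal protein genes 0 were either.

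**Figure D5:**
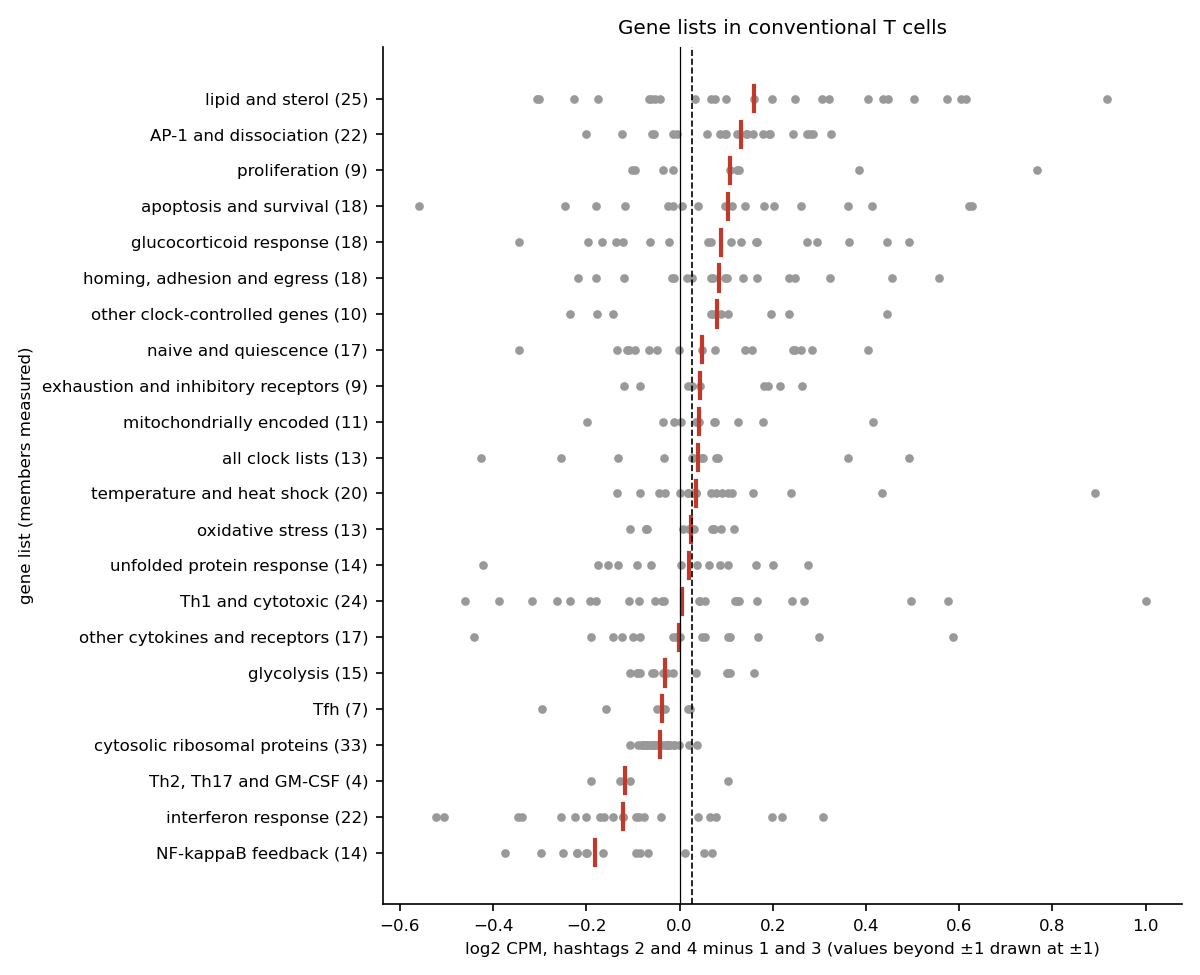
Log2 CPM difference of hashtags 2 and 4 minus hashtags 1 and 3 for the measured members (dots) and median (red bar) of each gene list drawn, with the number measured. The clock lists are drawn together, and lists of other cells, T cell core genes and sex-linked genes are not drawn. The dashed line marks the median of all measured genes, 0.03. Medians of the lists drawn lie between -0.18 (NF-kappaB feedback) and 0.16 (lipid and sterol). Those of the other-cell lists reached -0.85 (erythroid and platelet) and 0.85 (B cell).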

How the data were processed

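The libraries were 10x Genomics 3′ expression and hashtag libraries of 1 pooled sample. The deposited values are whole-number UMI counts per gene and barcode, and counts per hashtag and barcode, both raw. Cell Ranger 6.0, Seurat 3 and build mm10 stand in the submitters' processing notes, whereas the header of the deposited count matrix names cellranger 4.0.0. Hashtag barcodes were joined to cells after removal of the -1 suffix, and 22952 of 22960 barcodes were in the hashtag library. UMI counts were summed per hashtag and scaled to CPM. Log2 CPM used a prior of 0.5 count. Intervals are exact Poisson and, for pooled ratios, Clopper-Pearson, at 95%. No test was run, since 6 hashtags of unknown origin in 1 library give no replicates. No doublet caller was run, and cells were not clustered. The members, the pairing, the gene lists and the rules were chosen with earlier results of these data known. The genes named are up to 12 called genes in each direction, every clock gene, and up to 3 genes of each list with the largest difference among those without overlap, with others named as stated in the text. The functions were tested on simulated data. Calculations used Python 3.11.15, numpy 2.4.6, scipy 1.17.1 and pandas 2.3.3. Alternatives covered the cell, hashtag and T cell limits, the filter on low values, the fold, thinning, subsets of cells and leaving out each hashtag. Promoters and positions are from RefSeq on GRCm38.p6. Values of a few genes are not reported here.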

Additional observations from a re-analysis of the deposited data

Results flagged for a closer look

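Hashtags 7 to 10 are in the deposited hashtag table but carried no cells of the comparison. Over all barcodes, hashtag 7 had 278 counts, hashtag 8 had 10, hashtag 9 had 172 and hashtag 10 had 7. Each exceeds the limit of 3 counts that a count of 0 allows. Hashtags 2 and 4 had 861316 and 630779 counts over the same barcodes, and hashtags 1 and 3 had 869617 and 560096.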

How the results depend on the processing

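No paired analysis was possible because the hashtags carry no replicate numbers and no result comes from a test. Over 21 alternatives, Trim12a gave log2 differences of -1.05 to -0.72 and Gm1966 of -1.67 to -0.64, below 0 in all 21. Neither was called at a 2-fold limit, with a top tag of 95% and 20 counts, with cells thinned to 1500 UMIs, without other-cell UMIs, in naive-type cells or in cells of neither gate, and Trim12a was not called in Th1-type cells. Per1 stayed at 0.24 to 0.77, Rora at -0.74 to -0.03 and Tef at -0.76 to -0.12, while Arntl (-0.37 to 0.34), Cry1 (-0.13 to 0.85) and Nr1d2 (-0.34 to 0.82) crossed 0. The counts of calls were small and moved with most settings, and the cause was not tested. Calls were 2 lower at a 2-fold limit, 1 higher and 0 lower with a top tag of 95% and 20 counts, 2 higher with 1000 genes and under 5% mitochondrial counts, and 1 higher and 8 lower with 4 T cell UMIs. They were 0 and 0 without any other-cell UMI, where 84 and 46 cells were left against 132 and 99, 0 higher and 1 lower with cells thinned to 1500 UMIs, and 2 higher and 2 lower without each gene's top barcodes. They were 0 and 0 in naive-type cells, 0 higher in Th1-type cells, and 27 higher and 0 lower in cells of neither gate. From mean CPM per cell, with no interval rule, they were 154 higher and 137 lower. Leaving out 1 hashtag, which asks for fewer clear intervals by construction, gave 15 to 83 higher and 7 to 15 lower calls, and 2162 to 3431 genes higher and 1721 to 2855 lower without overlap. Without hashtag 2 there were 15 higher and 15 lower calls, without hashtag 4 83 and 7, without hashtag 1 20 and 8, and without hashtag 3 45 and 15. Genes without overlap were 665 lower at 20 CPM, and 2865 higher and 2565 lower with no filter. The clock gene median was 0.37 without other-cell UMIs, 0.51 in naive-type cells, -0.15 in Th1-type cells and 0.24 in cells of neither gate. It was -0.058 without hashtag 2, within a range of -0.058 to 0.042 over the hashtags left out. The genes measured were set anew in each subset. With few UMIs the prior of 0.5 count lifts hashtags 2 and 4, whose UMI totals are smaller. Over all conventional T cells Trim30e-ps1, with 0 UMIs in hashtags 1 to 4, scored 1.01 from the prior alone. In naive-type cells Nr1d2 had 0 and 3 UMIs in hashtags 2 and 4, against 0 and 3 UMIs, so medians of small subsets are uncertain. Signs turned with a top tag of 95% and 20 counts (Upk3b -0.021, Gas6 -0.086), with 1000 genes and under 5% mitochondrial counts (Efemp1 -0.77), and with a stricter exclusion of Treg genes (Cd74 -0.076, H2-Aa -0.29, Igkc 0.052). They also turned without other-cell UMIs (H2-Aa -1.15, Igkc 0.35, Jchain 0.60), in naive-type cells (Efemp1 -0.12, Igkc 0.48), in Th1-type cells (Efemp1 -0.65), in cells of neither gate (Igkc 0.32) and without top barcodes (Igkc 0.027, Jchain 0.054). Depth limits the clock genes, since 13 of 26 were under 10 CPM.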
